A study of Mus musculus with 4 samples.

Results

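The Hox genes encode homeodomain transcription factors and lie in 4 clusters in the mouse, Hoxa on chromosome 6, Hoxb on chromosome 11, Hoxc on chromosome 15 and Hoxd on chromosome 2. Chromatin accessibility across 38 of these genes was read from the ATAC-seq peaks listed for lung endothelial cells. A peak was counted for a gene when it overlapped the gene's mm10 span or the 5 kb on either side, a stretch called the gene's window. Peaks of different libraries that overlapped were joined into 1 merged region, and 103 of the 113056 merged regions of the series lay in Hox windows. Of these, 39 belonged to Hoxa (10 genes), 29 to Hoxb (10 genes), 12 to Hoxc (9 genes) and 23 to Hoxd (9 genes).

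ATAC-seq marks open chromatin, where a transposase can insert sequencing adapters. The study compared endothelial cells sorted by flow cytometry from lungs of Dnmt3a knockout (KO) mice, in 2 libraries, with those of wild-type (WT) mice, in 2 libraries, to see where accessibility depended on this gene. The age and sex of the mice, the way the gene was deleted and the cells in which it was deleted are not given in the sources used here. The labels also leave unstated if the 2 libraries within a genotype were made from separate mice, so every p-value below measures only the spread between these libraries, which may be technical.

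Hox genes give cells their position along the body axis, and within a cluster they are arranged in the order in which they are expressed from head to tail. Low paralogue numbers act in the hindbrain and neck, middle ones in the trunk, where the lung forms, and high ones in the limbs, pelvis and tail. Adult cells, endothelium among them, keep a positional pattern of Hox expression. Silent Hox genes are usually held by Polycomb complexes on CG-rich DNA with little methylation. DNMT3A, the product of Dnmt3a, is a de novo DNA methyltransferase.

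The lists held 85091 and 100879 peaks in KO replicates 1 and 2, and 101442 and 97627 in WT replicates 1 and 2, which covered 46.6, 47.8, 51.1 and 50.5 Mb. KO replicate 1 stood apart with the shortest list and the largest median peak width, 467 bp against 407 to 443 bp elsewhere. KO replicate 2 stood apart at the sex chromosomes. It had no peak within 2500 bp of any of 4 Y-linked genes where the others had peaks at 3 or 4, and 3 peaks at Xist where each other list had 1. All 10 endothelial markers had a peak within 1 kb of a gene end in every list, among them Cdh5, Pecam1 and Kdr. The same was true of 2 of 6 leukocyte markers in every list, 4 to 5 of 6 epithelial markers and 6 to 7 of 7 fibroblast and mural markers. In a sorted population, fewer cells with a site open and less opening per cell cannot be told apart.

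The promoters below set start sites with a peak in every list beside start sites with none nearby. They come from RefSeq (GRCm38.p6, the mm10 assembly), which gave 24 promoters for 22 of the 38 genes, each 250 bases before to 50 bases after the start. Each is written 5′ to 3′ on the gene's strand, and capitals mark CG dinucleotides, the substrate of DNMT3A. The first 4, of Hoxa3, Hoxa5, Hoxd9 and Hoxd13, had a peak over the start in all 4 lists and were those with the widest such regions, at most 2 to a cluster.
Hoxa3, chr6:52213018-52213317, minus strand: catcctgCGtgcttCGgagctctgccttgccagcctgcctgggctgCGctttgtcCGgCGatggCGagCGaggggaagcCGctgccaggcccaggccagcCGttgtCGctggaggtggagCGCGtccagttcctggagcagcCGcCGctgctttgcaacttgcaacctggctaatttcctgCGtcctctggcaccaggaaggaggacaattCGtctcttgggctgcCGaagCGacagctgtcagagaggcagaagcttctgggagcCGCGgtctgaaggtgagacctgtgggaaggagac
Hoxa5, chr6:52204538-52204837, minus strand: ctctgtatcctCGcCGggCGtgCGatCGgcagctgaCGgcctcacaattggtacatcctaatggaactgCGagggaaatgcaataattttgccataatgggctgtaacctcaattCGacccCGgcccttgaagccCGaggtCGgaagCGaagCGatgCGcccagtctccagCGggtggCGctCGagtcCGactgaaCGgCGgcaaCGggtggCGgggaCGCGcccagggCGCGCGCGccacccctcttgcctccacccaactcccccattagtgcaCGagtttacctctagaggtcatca
Hoxd9, chr2:74697513-74697812, plus strand: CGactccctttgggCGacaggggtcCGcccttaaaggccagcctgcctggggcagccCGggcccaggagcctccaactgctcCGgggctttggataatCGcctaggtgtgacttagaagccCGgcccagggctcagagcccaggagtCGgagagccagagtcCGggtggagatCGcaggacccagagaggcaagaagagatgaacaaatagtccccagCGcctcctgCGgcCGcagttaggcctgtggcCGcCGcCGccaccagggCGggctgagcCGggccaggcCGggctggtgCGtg
Hoxd13, chr2:74667975-74668274, plus strand: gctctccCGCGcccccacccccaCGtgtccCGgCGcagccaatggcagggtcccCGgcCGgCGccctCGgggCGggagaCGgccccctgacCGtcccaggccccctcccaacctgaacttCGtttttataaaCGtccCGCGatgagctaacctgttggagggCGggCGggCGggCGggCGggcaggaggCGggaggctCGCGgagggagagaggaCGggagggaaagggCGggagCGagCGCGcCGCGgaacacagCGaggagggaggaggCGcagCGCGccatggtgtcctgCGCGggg

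The next 4 had no peak within 1 kb of the start in any list. They are the promoters of Hoxa9, Hoxb8, Hoxc4 and Hoxd4, 1 from each cluster.
Hoxa9, chr6:52227321-52227620, minus strand: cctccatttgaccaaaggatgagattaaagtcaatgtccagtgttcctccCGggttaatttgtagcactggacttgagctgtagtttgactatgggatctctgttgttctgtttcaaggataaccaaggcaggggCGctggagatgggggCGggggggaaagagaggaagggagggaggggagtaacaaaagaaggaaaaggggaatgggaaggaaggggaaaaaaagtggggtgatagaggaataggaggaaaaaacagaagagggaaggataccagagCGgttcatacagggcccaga
Hoxb8, chr11:96281655-96281954, plus strand: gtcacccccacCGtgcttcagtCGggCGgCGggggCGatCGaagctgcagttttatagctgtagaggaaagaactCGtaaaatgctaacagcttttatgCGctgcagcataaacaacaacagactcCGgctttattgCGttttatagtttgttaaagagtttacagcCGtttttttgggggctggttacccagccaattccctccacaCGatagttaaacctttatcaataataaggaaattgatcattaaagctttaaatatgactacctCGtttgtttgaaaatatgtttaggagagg
Hoxc4, chr15:103034145-103034444, plus strand: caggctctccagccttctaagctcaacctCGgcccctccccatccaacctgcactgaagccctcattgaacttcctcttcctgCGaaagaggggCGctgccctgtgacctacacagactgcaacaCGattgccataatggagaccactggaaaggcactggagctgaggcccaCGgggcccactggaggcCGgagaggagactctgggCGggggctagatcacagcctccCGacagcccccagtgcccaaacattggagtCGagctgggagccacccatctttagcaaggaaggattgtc
Hoxd4, chr2:74721728-74722027, plus strand: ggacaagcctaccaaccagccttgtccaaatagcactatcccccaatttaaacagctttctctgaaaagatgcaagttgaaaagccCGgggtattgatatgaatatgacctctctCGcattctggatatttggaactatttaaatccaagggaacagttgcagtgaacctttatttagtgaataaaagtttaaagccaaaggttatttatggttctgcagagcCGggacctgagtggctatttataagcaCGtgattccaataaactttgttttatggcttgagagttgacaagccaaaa

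The ninth is the promoter of Hoxa6, the only Hox start site with a peak over it in the 2 WT lists alone among promoters in the table, and it was chosen for display after its values were seen.
Hoxa6, chr6:52208623-52208922, minus strand: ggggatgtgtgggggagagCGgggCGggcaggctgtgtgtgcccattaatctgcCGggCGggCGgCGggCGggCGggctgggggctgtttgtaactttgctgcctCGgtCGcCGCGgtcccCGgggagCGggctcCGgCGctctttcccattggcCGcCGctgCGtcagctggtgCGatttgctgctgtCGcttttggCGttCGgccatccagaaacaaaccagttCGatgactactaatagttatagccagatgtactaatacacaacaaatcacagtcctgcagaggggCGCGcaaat

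The first set held 20, 29, 20 and 37 CG dinucleotides for Hoxa3, Hoxa5, Hoxd9 and Hoxd13. The second held 4, 13, 9 and 4 for Hoxa9, Hoxb8, Hoxc4 and Hoxd4, and Hoxa6 held 26. Over all 24 Hox promoters the number ran from 4 to 45 (Hoxa13) with a median of 14.5, against a median of 7 over 32851 mouse promoters. The 7 Hox promoters with a peak over the start in every list had a median of 29 CG dinucleotides, and the 14 with no peak over the start in any list had a median of 9.5. High CG content did not always go with a listed peak, since Hoxa10's promoter at 52234890 to 52235189 held 21 and had no peak over its start in any list. The motif TGATTNAT, the site of Hox proteins paired with PBX cofactors, was searched on both strands and found in 2 of 24 Hox promoters (8.33%), those of Hoxa2 and the start of Hoxd11 at 74682323, against 3.22% of all promoters. A match describes the letters and not a bound site.

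Hox windows were more covered than those of most genes. Peaks covered a median of 9.28% of a Hox window (mean of the 4 lists) against 3.46% over 21887 protein-coding genes, and 29 of the 38 Hox genes lay above that median. Within each library the order was the same, Hoxa first, then Hoxb, Hoxd and Hoxc. In Hoxa the KO lists covered 11.0% and 13.2% and the WT lists 15.1% and 14.6%. In Hoxb it was 7.65% and 9.85% in KO and 12.1% in each WT list. Hoxd had 5.49% and 8.81% in KO and 9.02% and 8.17% in WT, and Hoxc had 2.55% and 3.44% in KO and 3.89% and 3.41% in WT. Taken across libraries, Hoxa overlapped Hoxb and Hoxb overlapped Hoxd, while Hoxc lay below the others in every list.

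**Figure D1:**
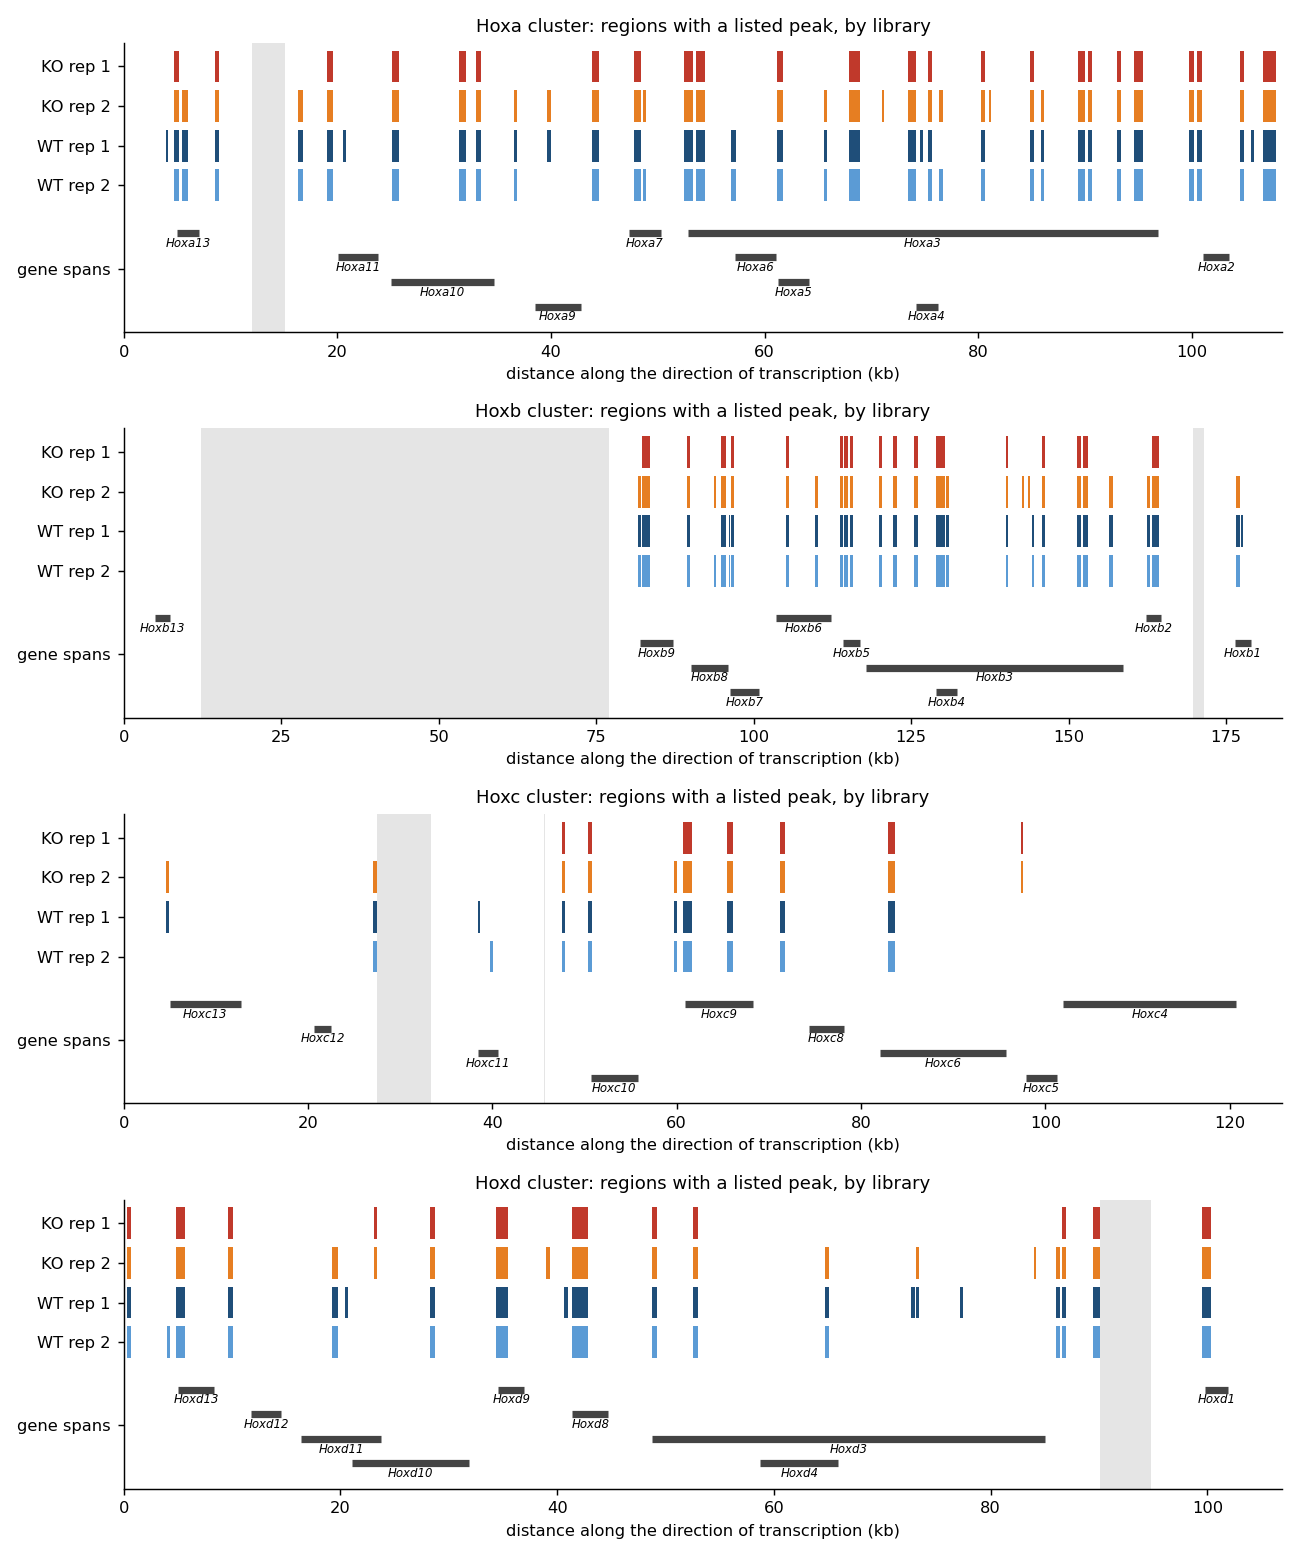
Merged regions along the 4 Hox clusters, 1 row per library, with distance in kb in the direction of transcription on the x axis and the spans of the 38 genes below; grey marks stretches outside the gene windows, where peaks are not drawn. Hoxa and Hoxb from Hoxb9 to Hoxb1 are filled most densely, Hoxb13 has no peak, and 16 regions are missing from KO replicate 1 alone.

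By paralogue number, the median covered share was 10.7% for groups 1 to 3 (7 genes), 12.1% for groups 4 to 8 (15 genes) and 7.62% for groups 9 to 13 (16 genes). These medians pool clusters of different level, with no Hoxc gene in groups 1 to 3. Within Hoxd they rose with paralogue number, 5.25%, 7.75% and 9.61%, and within Hoxa they fell, 17.2%, 15.6% and 8.59%. Hoxb had 10.7%, 12.1% and 5.55%. Over all clusters in WT replicate 1, groups 1 to 3 and 4 to 8 were close, at 12.5% and 12.4%. The 2 most covered genes of Hoxa were Hoxa7 and Hoxa2, and those of Hoxb were Hoxb5 and Hoxb4. Hoxa7 had 18.2% and 18.1% in KO and 20.3% and 24.9% in WT, a percentile of 99.6 among protein-coding genes by its mean. Hoxb5, a gene of the embryonic lung mesenchyme, had 10.8% and 13.8% in KO and 18.5% and 19.0% in WT. Pelvic and tail genes were not uniformly low: Hoxd13, a digit and genital gene, had 10.2% and 10.9% in KO and 11.3% and 14.0% in WT, while Hoxb13, a tail and prostate gene, had no peak in any list. Because windows of neighbouring genes overlap, one peak can count for several of them, and the 38 genes are not independent of each other.

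Start sites were listed less uniformly than the windows. A start here is the RefSeq promoter's start for 22 genes and the 5′ end of the gene span for the other 16. A peak lay within 1 kb of the start in all 4 lists at 21 of 38 genes (55.3%), in 1 to 3 lists at 7 and in none at 10. Among the 22 genes with a RefSeq start the count was 14 of 22, a share near the 62.4% of 17492 protein-coding genes in the same table. A peak over the start itself in all 4 lists was found at 7 of these 22 genes, against 57.1% of protein-coding genes. By library, KO replicates 1 and 2 had a peak within 1 kb at 22 and 26 Hox genes, and WT replicates 1 and 2 at 27 and 25.

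Less Hox DNA was covered in each KO list than in each WT list, most clearly in KO replicate 1, though 2 libraries a group cannot pass a threshold of 0.05. Over all Hox windows (444843 bp), the KO lists covered 29210 and 38651 bp and the WT lists 44026 and 42032 bp. Both KO values lay below both WT values. The KO mean was 33930.5 bp (SD 6676, n = 2) and the WT mean 43029 bp (SD 1410, n = 2), so KO had 78.9% of WT (two-sided exact permutation p = 0.333, the smallest that 2 libraries against 2 can give). Without KO replicate 1 the difference went from -9098.5 to -4378 bp, and without KO replicate 2 to -13819 bp. Hox peaks took 0.0626% and 0.0809% of the KO lists' own base pairs and 0.0861% and 0.0833% of the WT lists', so the KO lists were also lower relative to their length. Markers of other cells, leukocytes apart, also had less covered length in KO. Over the same kind of window, the 6 epithelial markers summed to 6281 and 6843 bp in KO and 8115 and 7857 bp in WT, with Nkx2-1 at 0 in both KO lists. The 7 fibroblast and mural markers summed to 10506 and 12011 bp in KO and 13238 and 12086 bp in WT, the 10 endothelial markers to 68728 and 71255 bp against 75794 and 74803 bp, and the 6 leukocyte markers, with Cd3e at 0 in every list, to 5888 and 6111 bp against 5923 and 6040 bp. KO thus had 82.2%, 88.9%, 93.0% and 100.3% of WT in these lists. The marker sums were not scaled to list length, and the whole KO lists also covered less, 46.6 and 47.8 Mb against 51.1 and 50.5 Mb in WT. The part of other cells in the Hox difference was not tested. KO replicates 1 and 2 held 61 and 89 Hox peaks, and WT replicates 1 and 2 held 90 and 83. These groups overlapped (exact permutation p = 0.667), and without KO replicate 1 the difference of -11.5 peaks became 2.5.

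Among clusters, Hoxb had the largest difference. Its covered length was 8992 and 11572 bp in KO and 14202 and 14214 bp in WT, and KO had 72.4% of WT. Leaving out each library in turn gave differences from -5216 to -2636 bp around the value of -3926 bp. Hoxa had 11555 and 13953 bp in KO and 15950 and 15387 bp in WT, or 81.4% of WT, and the difference of -2914.5 bp was -1715.5 bp without KO replicate 1. In both clusters the KO values lay below the WT values (exact permutation p = 0.333 each, Benjamini-Hochberg adjusted p = 0.666 over the 4 clusters). Hoxc had 3047 and 4117 bp in KO and 4659 and 4083 bp in WT, and Hoxd 5616 and 9009 bp in KO and 9215 and 8348 bp in WT. In Hoxc and Hoxd KO replicate 2 lay between the WT lists (exact permutation p = 0.667, adjusted p = 0.667). Without KO replicate 1 the Hoxd difference turned from -1469 to 227.5 bp, and the Hoxc difference went from -789 to -254 bp. The difference between clusters was not tested.

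**Figure D2:**
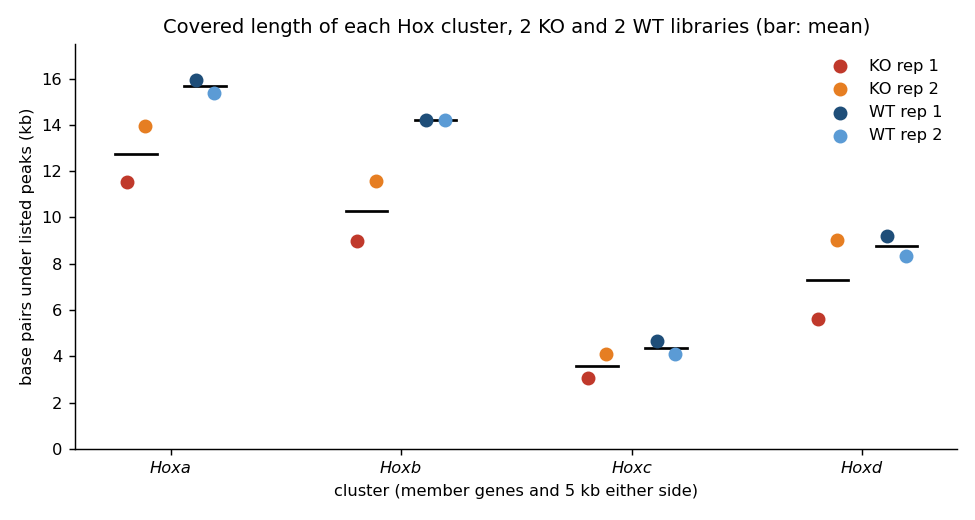
Base pairs under listed peaks in kb (y axis) for each Hox cluster (x axis), with 1 point per library and a bar at the mean of each genotype. The KO points lie below the WT points in Hoxa and Hoxb and overlap them in Hoxc and Hoxd.

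Most Hox regions were shared by both genotypes. Of 103 regions, 58 (56.3%) were called in all 4 lists, against 66.7% of all regions. The Hox regions missing from some lists were mostly missing from KO replicate 1. Regions called in every list except KO replicate 1 numbered 16 (15.5%, against a background of 7.59%), and 0 regions were called in every list except KO replicate 2, WT replicate 1 or WT replicate 2 (backgrounds 1.82%, 0.716% and 0.931%). The 16 lay in Hoxb (6), Hoxa (5), Hoxd (3) and Hoxc (2). Regions called in a single list numbered 0 in KO replicate 1 (background 1.92%), 6 in KO replicate 2 (5.83%, background 4.56%), 10 in WT replicate 1 (9.71%, background 4.34%) and 2 in WT replicate 2 (1.94%, background 2.55%). All 60 regions of KO replicate 1 were in the list of KO replicate 2, where 6.55% of its regions over the genome were not. Of 77 Hox regions called in both WT lists, 19 (24.7%) were absent from KO replicate 1, against 13.4% of all such regions, and 3 (3.90%) from KO replicate 2, against 6.14%. The shorter list of KO replicate 1 moved with these counts, and its part in them was not tested.

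Regions that followed genotype were few. Those listed in both KO libraries and absent from both WT libraries were 2 of 103 (1.94%, against 1.12% of all regions), and those with the opposite pattern were 3 (2.91%, against 3.04%). Both shares were near their background. The 2 KO regions were narrow. One, chr15:103013481-103013748, lay 260 bp upstream of the start of Hoxc5, a trunk gene, and between it and Hoxc6. Its peaks were 230 and 201 bp wide, and 8.94% and 3.22% of the peaks of their lists were as narrow or narrower. The smallest width in every list was 201 bp. The nearest WT peaks lay 14247 and 14309 bp from that start, and it was the only region within 5 kb of Hoxc4 or Hoxc5. The other, chr2:74686326-74686622, lay in the overlap of the Hoxd10 and Hoxd11 spans with a 202 bp peak in each KO list. These widths were also close to the smallest listed. With lists of equal length, 0 KO regions were left (background 1.96%). Hoxd10 is known to restrain endothelial migration during vessel growth. The gene table used here has no exons, so whether a region lies in an exon or an intron is not described.

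The 3 WT regions lay in Hoxa and Hoxb. At Hoxa6, chr6:52208554-52208990 covered the start with peaks of 431 and 278 bp, where the nearest KO peaks lay 2804 and 2785 bp away. The WT peaks covered 300 and 209 of the 300 bases printed above for Hoxa6. At Hoxb7, chr11:96285384-96285602 ended 2 bp upstream of the start with peaks of 215 and 204 bp, and the nearest KO peaks were 238 and 246 bp from that start. The third, chr11:96333537-96333894, lay inside the long Hoxb3 span with peaks of 358 and 355 bp. KO replicate 2 had a 210 bp peak close by, at chr11:96332876-96333085. With absence read as no peak within 500 bp, only 1 WT region was left, that at Hoxa6 (background 2.78%).

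Among the 2 widest regions of each cluster shared by all lists, only the one at Hoxc9 had widths that separated the genotypes. In Hoxb the widest was chr11:96318247-96319752 at the start of Hoxb4, a regulator of blood stem cell expansion, with peaks of 1455 and 1280 bp in KO and 1389 and 1436 bp in WT. The next, chr11:96271567-96272808 in Hoxb9, had 951 and 1242 bp in KO and 1100 and 1074 bp in WT. These groups overlapped. In Hoxd, chr2:74704635-74706046 in Hoxd8 summed to 1074 and 1352 bp in KO and 1220 and 1217 bp in WT, and chr2:74697539-74698678 over the start of Hoxd9 had 899 and 1077 bp against 1138 and 1011 bp. In Hoxa, chr6:52158005-52159193, downstream of the hindbrain gene Hoxa2, had 1141 and 1077 bp in KO and 1086 and 1074 bp in WT. The second of Hoxa, chr6:52196990-52197956 inside the Hoxa3 span, had 822 and 642 bp against 668 and 708 bp. In all 6 regions the KO and WT widths overlapped. In Hoxc, chr15:102976854-102977832 at the start of Hoxc9 was the exception, with 563 and 662 bp in KO and 841 and 979 bp in WT, and chr15:102999106-102999847 in Hoxc6 overlapped with 735 and 607 bp in KO and 656 and 587 bp in WT.

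The median shared Hox peak was narrower in each KO list than in each WT list, though no region passed limma's threshold. At the 56 Hox regions with exactly 1 peak in every list, the median width was 420.5 and 430.5 bp in KO and 491.5 and 495 bp in WT. Over all 69863 such regions it was 483 and 461 bp in KO and 491 and 495 bp in WT. Both KO peaks were narrower than both WT peaks at 25 Hox regions (44.6%, against a background of 27.1%) and wider at 0 (background 7.40%). After quantile normalisation, which gives the 4 lists the same distribution of widths, the counts were 18 (32.1%, background 14.9%) and 6 (10.7%, background 19.9%). Without KO replicate 1 the KO peak was narrower at 35 (62.5%, background 56.0%) and wider at 4 (background 18.8%), and without KO replicate 2 at 35 (background 46.1%) and 12 (background 35.0%). The measures of width groups and covered-length groups were chosen after seeing the data. In limma on quantile-normalised log2 width, 0 Hox regions passed at an adjusted p under 0.05, as did 0 of all 69863. At an unadjusted p under 0.05 there were 7 of 56 Hox regions, all narrower in KO (12.5%, background 6.01%). The smallest adjusted p at a Hox region was 0.63.

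The largest width differences lay in the Hoxb3 to Hoxb5 stretch and at Hoxa7. At chr11:96304632-96305087, inside Hoxb5, the peaks were 204 and 205 bp wide in KO and 456 and 450 bp in WT, a ratio of means of 0.451. Both KO widths were close to 201 bp, the smallest width in every list, which limits how far they could differ from each other. A second region inside Hoxb5, chr11:96303645-96304217, had 323 and 375 bp in KO and 515 and 573 bp in WT. Another merged region, chr11:96303007-96303539 at the Hoxb5 start, had 475 and 334 bp in KO and 432 and 455 bp in WT, so 2 of these 3 regions separated the genotypes by width. The Hoxb5 start itself lay under the peak in both WT lists and 31 and 96 bp from it in the KO lists. In Hoxb3, chr11:96314697-96315348 had 241 and 343 bp in KO and 580 and 652 bp in WT (ratio 0.474), chr11:96335146-96335641 had 238 and 287 bp against 414 and 496 bp, and chr11:96340629-96341349 had 366 and 451 bp against 695 and 721 bp. At Hoxa7, chr6:52217411-52218134 had 413 and 242 bp in KO and 672 and 722 bp in WT (ratio 0.470). These regions were picked by the size of their difference, so their values are a description. By cluster, the KO peaks were the narrower at 11 of 24 regions in Hoxa, 9 of 17 in Hoxb, 1 of 6 in Hoxc and 4 of 9 in Hoxd.

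**Figure D3:**
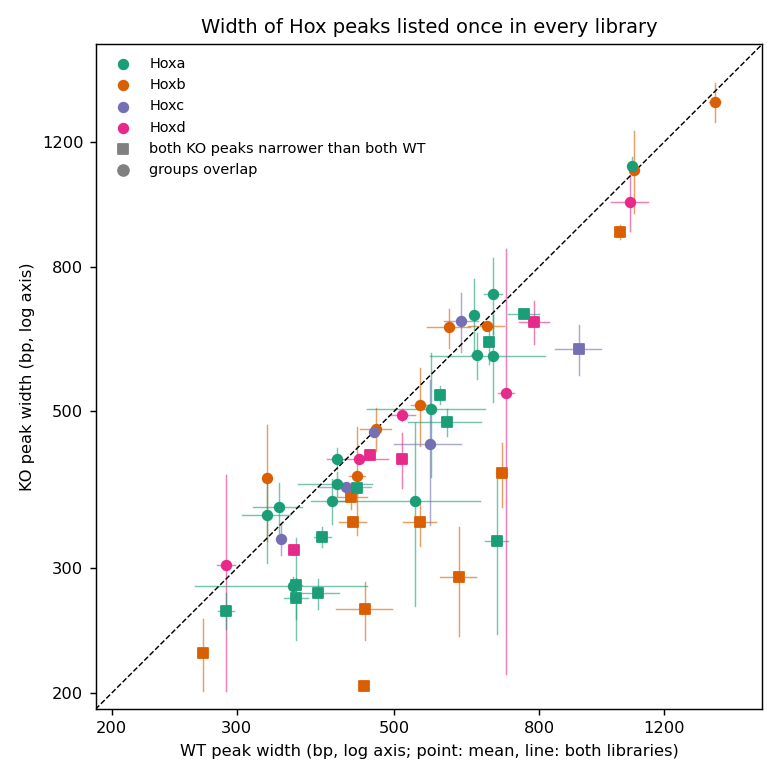
Peak width in bp, KO (y axis) against WT (x axis), both on log axes, for the 56 Hox regions with 1 peak in every list; points are means of 2 libraries, lines join the 2 library values, colour gives the cluster, and the dashed line marks equal width. The 25 squares, where both KO peaks were narrower than both WT peaks, all lie below the line, and no region has both KO peaks wider.

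Per gene, covered length was lower in both KO lists than in both WT lists at 20 of the 37 Hox genes with a peak (54.1%, against a background of 33.2% of 17236 protein-coding genes). It was higher at 3 (8.11%, background 5.71%). Taken as a share of each list's own covered length, the counts were 15 (40.5%, background 13.2%) and 3 (background 26.4%). Without KO replicate 1 the lower count was 21 (56.8%, background 61.2%) and the higher count 8 (21.6%, background 17.4%), near the background in both directions. Without KO replicate 2 they were 31 (83.8%, background 52.0%) and 3 (background 29.4%). The lower genes numbered 7 of 10 in Hoxa, 8 of 10 in Hoxb, 3 of 9 in Hoxc and 2 of 9 in Hoxd, and the 3 higher genes were all in Hoxc. Neighbouring windows overlap, so these counts hold some peaks more than once.

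In limma on quantile-normalised log2(covered bp + 200), 0 Hox genes passed at an adjusted p under 0.05, as did 0 of all 17236 genes. At an unadjusted p under 0.05 there were 11 Hox genes, 8 lower and 3 higher in KO (29.7%, background 6.44%). The 3 higher genes, Hoxc4, Hoxc5 and Hoxc6, share a region. Windows of neighbours among the lower genes, such as Hoxa5 and Hoxa6, also overlap, so the 11 are not separate observations. The median log2 difference, KO minus WT, was -0.21 over Hox genes and 0.03 over all genes. Without KO replicate 1 the Hox median was -0.05 and without KO replicate 2 it was -0.32. Folds on this scale understate the difference of genes with little covered length.

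In Hoxa, 7 of 10 genes had less covered length in both KO lists. Hoxa2 had 2223 and 2117 bp in KO and 2541 and 2342 bp in WT. Hoxa3, which patterns the throat and its glands, had 7634 and 8292 bp in KO and 8837 and 9694 bp in WT. Hoxa5, a gene required for lung branching and alveolar development, had 1364 and 1440 bp in KO and 1909 and 1869 bp in WT. Its log2 difference was -0.31 (SE 0.07, limma adjusted p = 0.584), and over the gene span without the flanks it was 0.01 (SE 0.07). Hoxa6, the neighbour of Hoxa5, had 1903 and 2005 bp in KO and 2525 and 2777 bp in WT, and it shares the region at its start with the Hoxa5 window. Hoxa7 had 2357 and 2345 bp in KO and 2633 and 3223 bp in WT. Toward the posterior end, Hoxa10 had 1089 and 1597 bp in KO and 2218 and 1621 bp in WT, and Hoxa11, a limb and kidney gene, 778 and 1131 bp in KO and 1753 and 1249 bp in WT (log2 difference -0.48, SE 0.23, limma adjusted p = 0.797). The Hoxa11 difference was -0.26 without KO replicate 1, -0.27 without WT replicate 1 and -0.19 over the gene span alone. In these 7 genes the groups did not overlap, and none passed limma's adjusted threshold. They overlapped at Hoxa9, a regulator of blood and endothelial cells, with 583 and 1125 bp in KO and 1245 and 1005 bp in WT. KO replicate 1 was the lowest of the 4 at Hoxa9 and had no peak within 5 kb of its start, where the other lists had one at 1101 to 1649 bp. Hoxa4 and Hoxa13 also overlapped.

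Hoxb had the most genes with separate groups, and they ran from Hoxb1 to Hoxb8. Hoxb3 had 5338 and 6619 bp in KO and 8569 and 8781 bp in WT (log2 difference -0.45, SE 0.11, limma adjusted p = 0.656). Its window spans that of Hoxb4, which had 1696 and 1830 bp in KO and 2234 and 2460 bp in WT. Hoxb5 had 1366 and 1734 bp in KO and 2337 and 2394 bp in WT (log2 difference -0.48, SE 0.13, limma adjusted p = 0.68). At each of these 3 genes KO replicate 1 was lowest, and at Hoxb3 and Hoxb5 the WT lists were closer together than the KO lists. Hoxb7 had 1507 and 1657 bp in KO and 1794 and 2068 bp in WT, and Hoxb8, which also acts in myeloid cells, 1480 and 1545 bp in KO and 1681 and 1901 bp in WT. The largest log2 difference belonged to Hoxb1, the facial nerve gene of the hindbrain, with 0 and 290 bp in KO and 936 and 500 bp in WT. It was -1.18 (SE 0.33, limma adjusted p = 0.68), and it was -0.78 without KO replicate 1, and -1.73 and -0.49 with 50 and 1000 bp added. Hoxb2 and Hoxb6 were also lower in both KO lists, and Hoxb9 overlapped with 1429 and 1900 bp in KO and 1745 and 1675 bp in WT.

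Hoxc was sparsely covered and held differences in both directions. Hoxc4 and Hoxc5 had 230 and 201 bp each in KO and 0 in both WT lists, all from the KO region upstream of Hoxc5. Their log2 difference was 1.09 (SE 0.23, limma adjusted p = 0.567), it is 1 observation and not 2, and with 50 and 1000 bp added in place of 200 it was 2.34 and 0.31. Hoxc6 had 965 and 808 bp in KO and 656 and 587 bp in WT (log2 difference 0.54, SE 0.10, limma adjusted p = 0.523), with the same region in its flank; without the flanks it was 0.17. Hoxc12 had 0 and 201 bp in KO and 378 and 349 bp in WT, all from 1 region near the end of its window (log2 difference -0.64, SE 0.08, limma adjusted p = 0.384). It was -0.41 without KO replicate 1, and -1.17 and -0.21 with 50 and 1000 bp added in place of 200. When the 4 lists were cut to equal length by keeping only their widest peaks, Hoxc12 had a log2 difference of -1.39 and limma adjusted p = 0.0358, the 1 Hox call of 36 genes, against 0.176% of all genes. That cut left out the 201 bp peak of KO replicate 2, which had the smallest width of its list. Both KO lists then held 0 bp at Hoxc12, so this call rests on dropping a listed KO peak. Hoxc9, whose start lay under a peak in the WT lists and 227 and 15 bp from one in the KO lists, had 1303 and 1956 bp in KO and 2204 and 2099 bp in WT, and Hoxc11 had 0 in both KO lists and 201 and 233 bp in WT. The groups overlapped at Hoxc8, a thoracic gene, with 558 and 546 bp in KO and 634 and 555 bp in WT. They also overlapped at Hoxc10, with 779 and 1169 bp in KO and 1092 and 1088 bp in WT. At Hoxc13, a hair gene, the values were 0 and 337 bp in KO and 406 and 0 bp in WT, 1 empty list in each genotype.

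In Hoxd, 2 of 9 genes had groups that did not overlap, both lower in KO (background 33.2%). Hoxd13 had 1371 and 1458 bp in KO and 1511 and 1878 bp in WT, and Hoxd4 had 0 and 349 bp in KO and 395 and 363 bp in WT. At both genes the KO lists were below both WT lists. Hoxd8 had 1464 and 2132 bp in KO and 2076 and 1726 bp in WT, and Hoxd9 had 1329 and 1905 bp in KO and 1970 and 1577 bp in WT, so KO replicate 1 was lowest and KO replicate 2 lay among or above the WT lists. The same held for Hoxd10 with 1585 and 2133 bp in KO and 2239 and 2050 bp in WT, and for Hoxd11 with 686 and 1056 bp in KO and 1101 and 1039 bp in WT. Hoxd12 had 432 and 544 bp in KO and 402 and 777 bp in WT, with WT replicate 1 the lowest. At Hoxd1, which acts in pain-sensing neurons, KO replicate 1 had 213 bp and the other lists 700 to 847 bp.

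**Figure D4:**
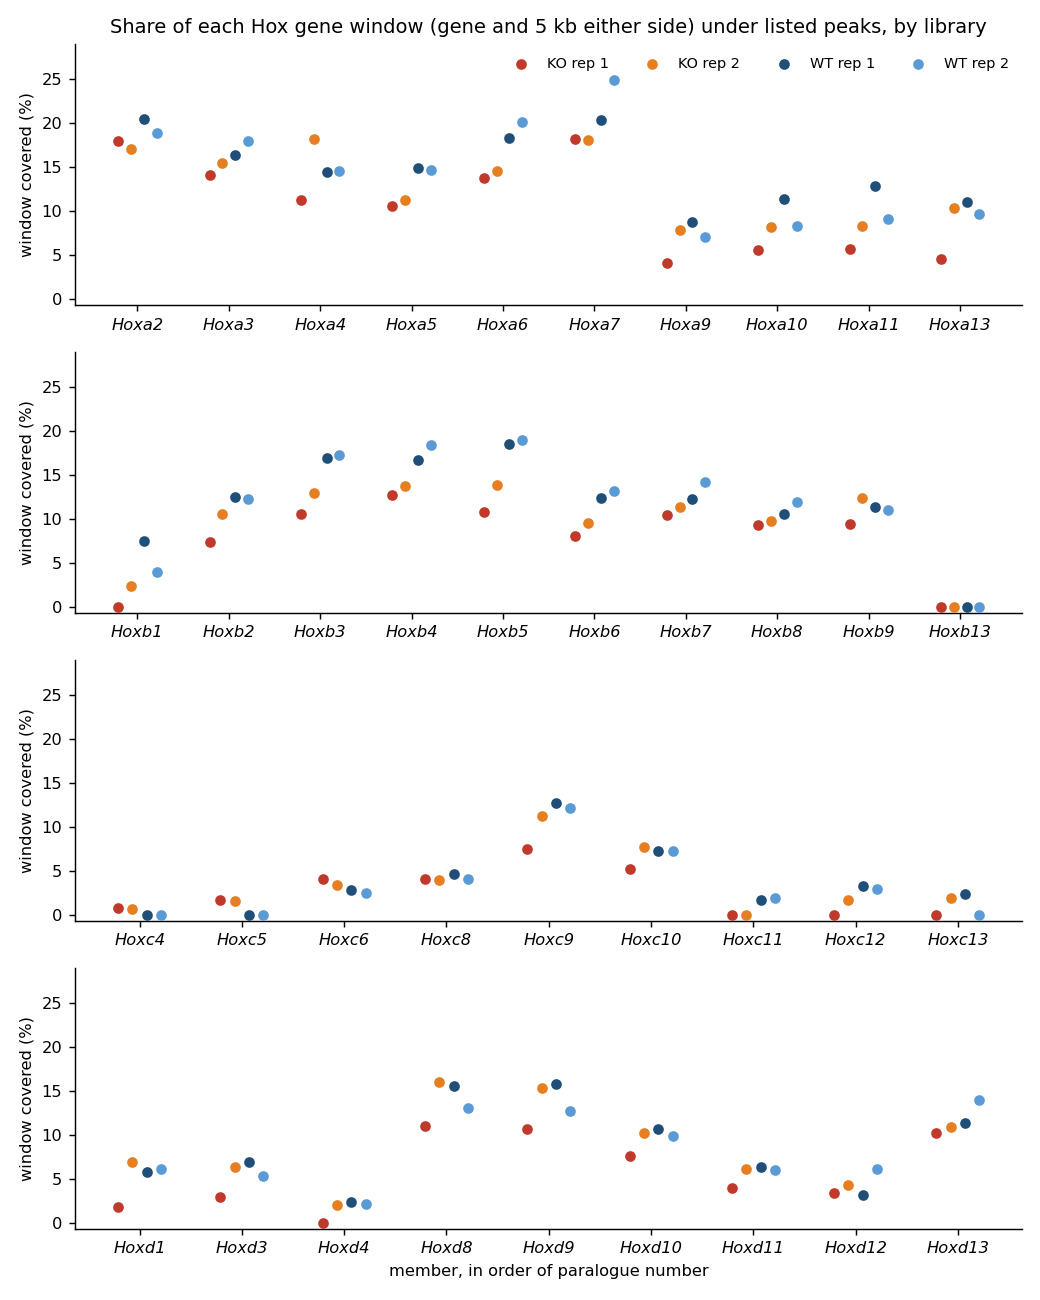
Share of each Hox gene's window under listed peaks in percent (y axis) for the 38 genes in order of paralogue number (x axis), 1 panel per cluster from Hoxa at the top to Hoxd, with 1 point per library. KO replicate 1 alone is the lowest point at 28 of 38 genes, the WT points lie above both KO points from Hoxb1 to Hoxb8, and Hoxc4 to Hoxc6 have the KO points on top.

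The clusters also hold microRNA genes. The mature forms below (RefSeq) are shown because they share 2 seeds (bases 2 to 8, in capitals) across the clusters. miR-10a lies beside Hoxb4 and miR-10b beside Hoxd4, and miR-196a and miR-196b lie beside the paralogue 9 genes and Hoxa10.
miR-10a-5p: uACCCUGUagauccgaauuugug
miR-10b-5p: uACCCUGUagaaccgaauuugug
miR-196a-5p: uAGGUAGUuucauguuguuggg
miR-196b-5p: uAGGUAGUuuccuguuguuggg

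None of the 4 had a listed peak over its mature sequence in any list. The nearest peak to miR-10a-5p, at chr11:96317186-96317208, was 1039 and 1087 bp away in KO and 1135 and 1109 bp in WT. For miR-10b-5p, at chr2:74726074-74726096, it was 9883 bp away in KO replicate 1 and 1827 to 1870 bp in the other lists. The difference at miR-10b is that of the Hoxd4 region absent from KO replicate 1. For miR-196b-5p, at chr6:52230129-52230150, it was 2361 bp in KO replicate 1 and 828 to 882 bp elsewhere. Of 16 RNA genes of the clusters, 9 were lower and 1, Mir615, higher in both KO lists in covered length (backgrounds over protein-coding genes 33.2% and 5.71%), and Mir615 rests on the KO region upstream of Hoxc5. Windows of these RNA genes overlap Hox windows, so the counts largely repeat peaks already counted for Hox genes. Mir10a, Hotairm1 and Mir10b had the same values in every list as Hoxb4, Hoxa2 and Hoxd4.

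Genes that act with or on Hox genes are given by the same counts. Of 9 cofactor genes of the TALE homeodomain class (Meis, Pbx and Pknox), which bind DNA with Hox proteins, 3 had more covered length in both KO lists (background 5.71%) and 4 had less (background 33.2%). Meis2 had 12612 and 12445 bp in KO and 9975 and 10837 bp in WT. Meis1 had 12847 and 13237 bp in KO and 12332 and 12442 bp in WT. Pknox2, among the 4 lower genes, had 9478 and 10253 bp in KO and 11801 and 10689 bp in WT. The windows of the 9 genes held 143 regions, of which 10 were called in both KO lists only (background 1.12%) and 0 in both WT lists only (background 3.04%). Of the 10 KO regions, 5 lay at Meis2 and 3 at Meis1, so the count rests mostly on these genes. Of 17 Polycomb and Trithorax genes, which keep Hox genes silent or active, 8 were lower and 1 higher (backgrounds 33.2% and 5.71%). Their 81 regions held 1 KO and 3 WT regions, near the backgrounds of 1.12% and 3.04%. Ezh2, the Polycomb methyltransferase, had 1708 and 1645 bp in KO and 2211 and 1885 bp in WT. No difference between these lists and the Hox genes was tested.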

How the data were processed

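ATAC-seq peak lists of 2 KO and 2 WT libraries were used, grouped by the genotype in the labels. Bowtie2, cutadapt and Picard, with the mm10 build, are named without versions, per the submitters' processing notes. The peak caller, its threshold, any transposase shift and the read depth are not given in the sources used here. Each deposited list gives positions and peak width in base pairs, a measurement the authors left without score, count or normalisation, per the file headers. Absence from a list therefore does not show closed chromatin. Counting intervals could not be computed without counts. Precision is given by the spread of 2 libraries and the standard errors.

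Peaks of at least 1 bp overlap were merged. Gene spans came from RefSeq (GRCm38.p6), and all 38 genes matched. Library values were compared by two-sided exact permutation tests. Widths and covered lengths were fitted with limma over all regions or genes, on log2 values computed here, at a Benjamini-Hochberg adjusted p under 0.05. The limma step was tested on simulated data. The Hox genes, the other gene lists and the tests were chosen with earlier results of these data known.

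Genes named with values had a genotype-patterned region, were the 2 most or least covered of their cluster, or had the 5 largest differences in each direction. Others are named as context. One item of the gene lists is not reported here. Regions named were the genotype-patterned and the 2 widest shared ones per cluster. Alternatives covered the flank, list length, width minimum, overlap, pseudocount, filter, scaling, replicate block and leaving out each library. Tools were limma 3.58.1 in R 4.3.3, and pandas 2.3.3, numpy 2.4.6, scipy 1.17.1 and matplotlib 3.10.9 in Python 3.11.15.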

Additional observations from a re-analysis of the deposited data

How the results depend on the processing

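Of 115 values computed under other settings for the summary results, 95 were classed as unchanged. A difference was classed so when it kept its sign, whatever its size. A count was classed so when it equalled the count reported or lay within 1.5 times of it. Limma counts that stayed at 0 are among the 95. Leaving out each library in turn, the difference in Hox peaks (KO minus WT) ran from -25.5 to 2.5, that in Hox covered length from -13819 to -4378 bp and that of Hoxd from -3165.5 to 227.5 bp, the upper ends without KO replicate 1. KO-only regions ran from 2 to 8 and WT-only regions from 3 to 19, the highest without KO replicate 1 and KO replicate 2, where the shares of all regions were 5.83% and 11.1%. KO-only regions numbered 1 with gene spans alone (1.12% of all regions). They numbered 0 with lists of equal length (1.96%) or with peaks at or over the median width (1.08%). WT-only regions numbered 7 with peaks at or over the median width, 6 when peaks had to cover 50% of a region and 1 when absence meant no peak within 500 bp. Without each library, regions narrower in KO ran from 29 to 35 (backgrounds 39.3% to 56.0%) and wider ones from 2 to 12 (15.4% to 35.0%). Genes lower in KO ran from 21 to 31 (backgrounds 44.8% to 61.2%) and higher from 3 to 8 (11.6% to 29.4%). Each of these ranges asks for 1 library fewer. After quantile normalisation 6 regions were wider (background 19.9%). Equal list lengths gave 1 Hox call in covered length, Hoxc12 at -1.39, where the cut left out its only KO peak. The sign of Hoxc8 turned without normalisation (-0.08). That of Hoxc13 turned without normalisation (-0.09), without the filter and with equal lists (-0.02 each), and it ran from -0.46 to 0.95 without each library, including -0.05 without KO replicate 2. The cause of these changes of sign was not tested. With the replicate number as a block, limma called 0 Hox regions and 0 Hox genes, as without it. At an unadjusted p under 0.05 there were 8 of 56 Hox regions and 11 of 37 Hox genes. The counts over all were 3929 of 69863 regions and 927 of 17236 genes. The labels do not say what a shared replicate number means. The KO and WT differences between replicates 1 and 2 correlated at -0.0411 over widths and -0.0538 over genes. Such a correlation cannot show whether the libraries were paired, since the KO difference also carries the unlike list lengths. Depth is unknown, so a narrow peak missing from a list may lie under that list's limit.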

Other observations

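Regulators of the Hox clusters and the genes beside them had peaks in both genotypes, except Cdx4, which had none in its window in any list. Among 10 retinoic acid and Cdx genes, which set the extent of Hox expression in the embryo, 4 had less covered length in both KO lists and 0 had more (33.2% and 5.71% of all genes with a peak). Their 108 regions held 1 in both KO lists only and 4 in both WT lists only, near the 1.12% and 3.04% of all regions. Rarb, a retinoic acid receptor, had 10472 and 10168 bp in KO and 13295 and 13234 bp in WT, and Cdx2 had 999 and 445 bp against 1629 and 1432 bp. Among 10 genes beside the clusters, 3 had less and 1 more, against the same shares of all genes, and their 90 regions held 1 KO and 7 WT regions, against 1.12% and 3.04% of all regions. Of the 7, 6 lay at Skap1, a signalling adaptor gene on the far side of Hoxb1, with 12412 and 10081 bp in KO and 14466 and 14222 bp in WT. Evx2, beside Hoxd13, had 317 and 1146 bp in KO and 1015 and 1000 bp in WT, so its groups overlapped with KO replicate 1 the lowest.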
